A study of Mus musculus with 6 samples.

Results

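The baseline profile of untreated wild-type lung airspace cells was described from bulk RNA sequencing of 2 libraries, WT replicates 1 and 2, which are the wild-type samples among 6 in the series. Members were chosen by the genotype in the sample labels alone, and the other 4 libraries, which the labels give as knockouts, entered no value given here. The cells came from bronchoalveolar lavage fluid, the liquid used to rinse the airways and alveoli of the mouse lung. Per the labels they were immune cells of WT genotype, received no treatment and shared 1 batch date, and total RNA was extracted with Trizol. The labels name no mouse strain, age, sex or number of animals per library, so the spread between the libraries may be biological or technical. No sorting step is described, so every cell in the fluid could contribute RNA.

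Alveolar macrophages are the resident phagocytes of the airspace. They form under GM-CSF and TGF-beta, which induce the nuclear receptor PPAR gamma, and they take up and break down surfactant, a mixture of lipid and protein that the alveolar epithelium secretes. Lipid handling, lysosomal degradation and scavenger receptors are therefore well-known features of these cells, and the markers Chil3, Marco, Siglecf, Car4, Fabp4 and Krt79 are used to recognise them.

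Levels are given as FPKM, read counts scaled by transcript length and sequencing depth, which allows genes of different length to be compared. Each pair of values is WT replicate 1 followed by WT replicate 2. The read counts summed to 55129216 and 65937118. Protein-coding genes, including those encoded in mitochondria, took 90.1% and 92.7% of the counts. Mitochondrially encoded genes took 5.20% and 6.12%, a share that overlaps the first. CT010467, a gene that collects ribosomal RNA, took 5.44% and 2.86%. Among 19921 protein-coding genes outside the mitochondrial genome, 9162 (46.0%) reached 1 FPKM in both libraries, 3244 reached 10 FPKM, 359 reached 100 FPKM and 13 reached 1000 FPKM. At the other end, 7568 (38.0%) stood below 0.1 FPKM in both libraries, called near zero here, and 4890 of them had 0 counts in both. A count of 0 allows up to 3 counts, which for a gene of median length corresponds to 0.0130 and 0.0108 FPKM, and this limit covers counting error only. The median protein-coding gene stood at 0.65 and 0.60 FPKM. The shares of 46.0% and 38.0% are the background for the counts of list members given below.

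The 6 alveolar macrophage markers were all high, although they spanned more than 2 orders of magnitude. Chil3, which encodes the chitinase-like lectin Ym1 (ENSMUSG00000040809, mm10 chromosome 3, 106147554 to 106167564), stood at 5094 and 8601 FPKM, a mean of 6848 ± 2480.01 (SD, n = 2), and ranked 3rd of all protein-coding genes. Marco, a scavenger receptor that binds unopsonised particles and bacteria (ENSMUSG00000026390, mm10 chromosome 1, 120474538 to 120505024), stood at 449 and 612 FPKM and ranked 43rd. Car4, a membrane-anchored carbonic anhydrase (ENSMUSG00000000805, mm10 chromosome 11, 84957786 to 84966044), stood at 178 and 210.1 FPKM and ranked 173. These 3 genes were each higher in WT replicate 2, by less than 2-fold, as were the other 3 markers, given next. Krt79, a keratin (ENSMUSG00000061397, mm10 chromosome 15, 101929332 to 101940324), stood at 75.3 and 85.7 FPKM and Siglecf, a sialic acid-binding receptor of alveolar macrophages and eosinophils (ENSMUSG00000039013, mm10 chromosome 7, 43351341 to 43359531), at 61.9 and 70.4 FPKM. Fabp4, a fatty acid-binding protein that PPAR gamma induces (ENSMUSG00000062515, mm10 chromosome 3, 10204088 to 10208576), was the lowest of the 6 at 40.2 and 41.2 FPKM and rank 948. All 24 members of a wider alveolar macrophage list stood above 10 FPKM in both libraries, beside 16.3% of all protein-coding genes. The list was chosen with earlier results of these data known, so this count is a description and no test of cell identity. Its median was 172 FPKM, and 14 members stood above 100 FPKM. The summed share of the 24 genes in protein-coding FPKM was 4.53% and 6.21%, of which Chil3 alone took 2.11% and 3.39%. Of the 24 genes, 22 were higher in WT replicate 2, none of them over 2-fold. Over all protein-coding genes with a mean of at least 1 FPKM, the median log2 ratio of WT replicate 2 to WT replicate 1 was -0.0016. At levels nearer those of the list it was -0.0068 between 10 and 100 FPKM and 0.046 from 100 FPKM upward. The share of all genes higher in WT replicate 2 was not computed. The labels call the cells immune cells of the lavage fluid, and the defining markers of its resident macrophage were all present.

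**Figure D1:**
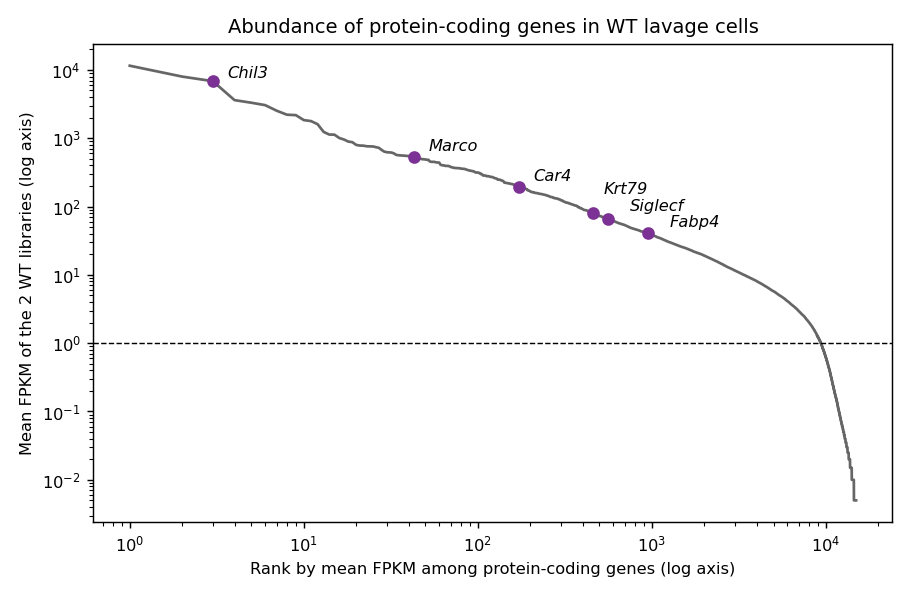
Mean FPKM of the 2 WT libraries against rank among protein-coding genes, both on log axes. The purple points are the 6 markers, which lie between ranks 3 (Chil3) and 948 (Fabp4), and the dashed line marks 1 FPKM.

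Within their families, the markers were not always the leading member. Fabp4 made up 9.57% and 8.12% of the FPKM of the 9 fatty acid-binding protein genes. Fabp1, best known as the liver form, made up 54.7% and 64.6% of that sum, at 229.7 and 328 FPKM, and Fabp5 35.7% and 27.2%, at 150.1 and 138 FPKM. Fabp7 stood at 0.21 and 0.23 FPKM, and Fabp2, Fabp3, Fabp6, Fabp9 and Fabp12 had 0 counts. Car4 held 93.1% and 94.3% of the FPKM of 16 carbonic anhydrase genes, and Chil3 99.9% and 99.8% of that of 7 chitinase-like genes. Chil3 and Chil4 are near-identical in sequence, so reads could be assigned to either, and Chil4 itself differed between the libraries at 1.94 and 17.1 FPKM. Among 10 keratin genes Krt19, an epithelial keratin, exceeded Krt79, with 75.2% and 71.8% of the family at 256 and 239 FPKM, whereas the epithelial partner genes Krt8 and Krt18 stood at 1.72 and 1.46 and at 1.67 and 1.74 FPKM. Of 14 cathepsin genes 12 stood at or above 1 FPKM, and Ctsd held 45.6% and 45.9% of the family.

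The transcriptome was concentrated in few genes. The 100 most abundant protein-coding genes held 36.5% of all protein-coding FPKM in WT replicate 1 and 39.1% in WT replicate 2, and 270 and 229 genes were enough to reach 50%. The 100 highest genes of each library had 94 genes in common. Lyz2, lysozyme M, ranked 1st at 8836 and 14209 FPKM and alone held 3.67% and 5.60%. Ftl1, the ferritin light chain, ranked 2nd at 8091 and 7882 FPKM. Lyz2 and Chil3 were both higher in WT replicate 2, while Ftl1 was nearly equal in the libraries.

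The remaining genes at the top fell into a few functional groups. Lysosomal proteins were represented by the aspartic protease gene Ctsd (3493 and 3730.2 FPKM), the saposin precursor gene Psap (2202 and 2220.1 FPKM), the cysteine protease genes Ctss (2036 and 2320.2 FPKM) and Ctsz (762 and 759 FPKM), and the endosomal glycoprotein gene Cd68 (835 and 722 FPKM). Secreted proteins included the ribonucleases Ear2 (1587 and 1978 FPKM) and Ear1 (552 and 722 FPKM), members of a family of near-identical genes whose reads may be shared, and the chemokine Ccl6 (996 and 1479 FPKM). Genes of iron, haem and metal handling were Fth1, the ferritin heavy chain (3149.8 and 2950.1 FPKM), Hmox1, haem oxygenase 1 (1284 and 981 FPKM), and the metallothionein Mt2 (726 and 506 FPKM). Mpeg1, a pore-forming protein of phagosomes, stood at 1108 and 1148 FPKM. Lgals3, galectin 3, stood at 989 and 928 FPKM and the tetraspanin Cd9 at 685 and 877 FPKM. Cyba, a subunit of the phagocyte NADPH oxidase, stood at 783 and 694 FPKM and Laptm5, a lysosomal membrane protein of blood cells, at 760.1 and 687 FPKM. The MHC class I genes B2m (1723 and 1961 FPKM) and H2-D1 (891 and 860.3 FPKM) were also in the first 30. Widely expressed genes filled the rest: Eef1a1, Eef2 and Tpt1 of translation, Tmsb4x, Actg1 and Vim of the cytoskeleton, Ubb (ubiquitin) and the peroxiredoxin Prdx1, between 585 and 653 FPKM for Prdx1 and 2962 and 3655 FPKM for Eef1a1. Lars2, a mitochondrial leucyl-tRNA synthetase, was the exception in reproducibility, at 1094 and 504 FPKM, and it was lower in the same library as CT010467, which took 5.44% and 2.86% of the counts. The part of ribosomal RNA reads in the Lars2 value was not tested.

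**Figure D2:**
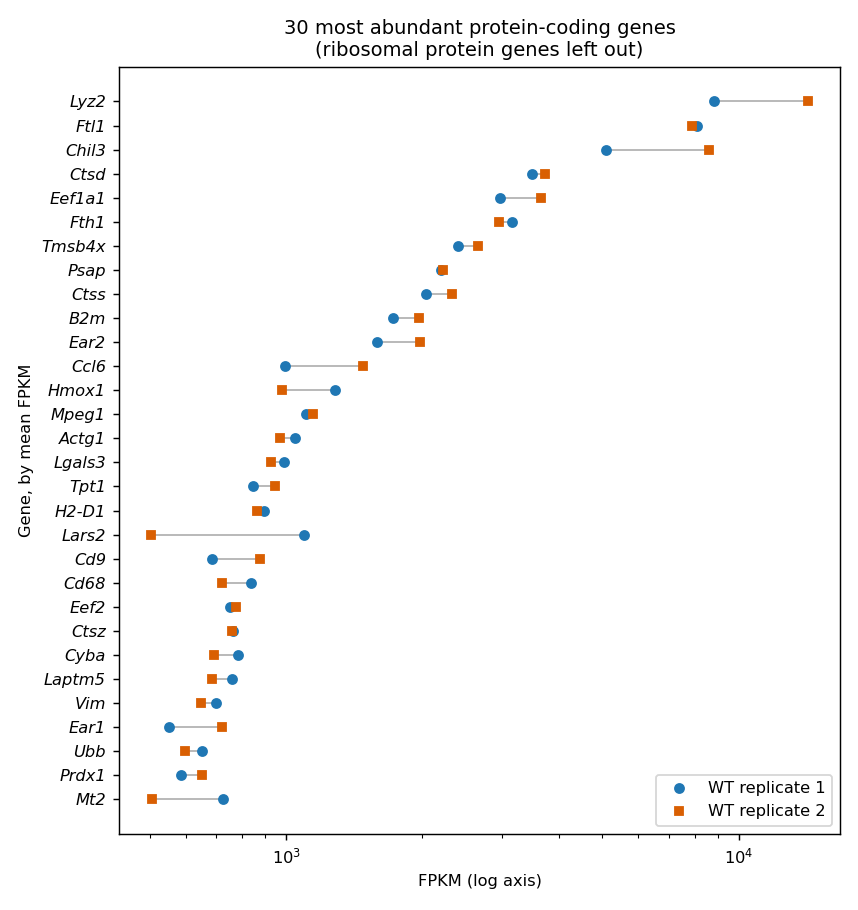
FPKM (log axis) of the 30 most abundant protein-coding genes after leaving out ribosomal protein genes, with WT replicate 1 as blue circles and WT replicate 2 as orange squares. Lyz2, Chil3, Ccl6 and Cd9 were higher in WT replicate 2, and Lars2, Hmox1 and Mt2 in WT replicate 1.

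By gene symbol, 23 of the 100 most abundant genes were cytosolic ribosomal protein genes. The 85 genes of that kind held 7.54% and 7.99% of protein-coding FPKM. This share is uncertain where a gene has near-identical copies: Rpl30 stood at 10.8 and 10.2 FPKM and its copy Rpl30-ps9 at 71.7 and 80.6 FPKM. By deposited annotation, genes of the KEGG lysosome pathway held 7.24% and 7.00%. Of its 121 members 106 stood at or above 1 FPKM and 12 were in the first 100. The KEGG phagosome pathway held 5.63% and 5.45%, and ferroptosis, led by Ftl1, Fth1 and Hmox1, held 5.98% and 5.43%. Genes annotated to the extracellular space held 16.1% and 18.0%, with Lyz2 as their most abundant member. The share of members at or above 1 FPKM was 99.2% for the 129 genes of the KEGG ribosome pathway. It was 89.7% for oxidative phosphorylation and 87.6% for the lysosome, beside 46.0% of all protein-coding genes. Of the annotation classes counted it was lowest among G protein-coupled receptors, at 4.01%, of 1395 genes that include the olfactory receptors.

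Lysosomal genes were expressed as a nearly complete set. Of 58 hydrolases, membrane proteins and proton pump subunits, 56 stood at or above 1 FPKM in both libraries and 22 above 100 FPKM, with a median of 63.6 FPKM. Lamp1, the major lysosomal membrane protein, stood at 548 and 563 FPKM, the collagen-degrading protease gene Ctsk at 482 and 412 FPKM and Hexa, a subunit of beta-hexosaminidase, at 390.04 and 394 FPKM. The proton pump subunit gene Atp6v0d2, a form with narrow tissue expression, stood at 328 and 366 FPKM, above its widely expressed counterpart Atp6v0d1 at 181 and 156 FPKM. None of the 56 genes with a mean of at least 1 FPKM was over 2-fold apart between the libraries. The share among all protein-coding genes at that minimum was 0.812%. Sgsh, which removes sulphate from heparan sulphate, stood at 0.01 and 0.06 FPKM, from 4 and 20 counts, and Ctsw, a cathepsin of cytotoxic lymphocytes, at 0.82 and 0.32 FPKM, and these were the 2 members below 1 FPKM.

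Promoter sequences of these genes are shown because lysosomal genes are known to share the CLEAR element, an E-box bound by the MiT/TFE transcription factors. The 7-base core TCACGTG was searched on both strands, where the palindrome TCACGTGA is 1 stretch matched on both, in the 250 bases before the transcription start that RefSeq (GRCm38.p6) gives. Promoters were matched for 15341 of the 19921 protein-coding genes and for 46 of the 58 lysosomal ones. The core was present in 11 of the 46 (23.9%), in 605 of all 15341 (3.94%), in 5 of the 77 matched promoters of the 100 most abundant genes (6.49%), and in 126 of 5826 promoters of genes with a mean under 0.1 FPKM (2.16%). The 5 most abundant lysosomal genes with a match within 120 bases of the start follow, each as the 120 bases before the start, 5′ to 3′ on the strand of the gene, with the core in capitals.
Ctsd, chr7:142387828-142387947, minus strand: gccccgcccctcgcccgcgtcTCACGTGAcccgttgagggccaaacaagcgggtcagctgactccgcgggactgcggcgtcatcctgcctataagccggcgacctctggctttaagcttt
Lamp1, chr8:13159041-13159160, plus strand: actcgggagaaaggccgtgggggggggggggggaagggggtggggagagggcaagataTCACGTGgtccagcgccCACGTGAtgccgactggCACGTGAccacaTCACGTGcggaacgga
Atp6v0b, chr4:117887330-117887449, minus strand: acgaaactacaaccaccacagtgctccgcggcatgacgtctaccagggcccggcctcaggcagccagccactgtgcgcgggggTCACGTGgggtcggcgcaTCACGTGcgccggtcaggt
Naglu, chr11:101069974-101070093, plus strand: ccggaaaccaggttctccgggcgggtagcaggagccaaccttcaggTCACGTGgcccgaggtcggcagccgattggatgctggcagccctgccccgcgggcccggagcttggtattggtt
Glb1, chr9:114400958-114401077, plus strand: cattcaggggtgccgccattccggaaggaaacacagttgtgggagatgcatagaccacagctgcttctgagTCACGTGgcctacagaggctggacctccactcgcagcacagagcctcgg
Lamp1 held 4 such stretches and Atp6v0b 2. Their levels ranged from 3493 and 3730.2 FPKM for Ctsd through 114 and 121 for the proton pump subunit gene Atp6v0b and 53.03 and 48.7 for the heparan sulphate hydrolase gene Naglu to 15.6 and 20.03 for the beta-galactosidase gene Glb1. Sgsh also held the core. A match is a description of these letters and not evidence of binding. The MiT/TFE factors themselves stood at 14.8 and 18.4 FPKM for Tfec, 14.2 and 12.6 for Tfeb, 12.3 and 11.3 for Tfe3 and 5.4 and 5.12 for Mitf.

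The iron and haem list was led by iron storage and haem breakdown genes. The ferritin genes Ftl1 and Fth1 are described above. Haem breakdown genes were Hmox1, Blvra (60.1 and 61.6 FPKM) and Blvrb (46.1 and 37.1 FPKM), which encode biliverdin reductases, and Slc48a1, which carries haem out of the lysosome, stood at 136 and 127 FPKM. Trf, transferrin, stood at 367 and 442 FPKM. The transferrin receptor gene Tfrc stood at 1.79 and 1.2 FPKM and the iron exporter gene Slc40a1, ferroportin, at 5.26 and 3.53 FPKM. The haemoglobin receptor gene Cd163 and the hormone gene Hamp stood at 0.01 and 0 and at 0 and 0 FPKM. Of 36 genes in this list, 28 stood at or above 1 FPKM in both libraries.

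Antioxidant enzymes were similarly abundant, with 32 of 38 at or above 1 FPKM, 12 above 100 FPKM and a median of 24.7 FPKM. After Hmox1, Prdx1 and Mt2 the highest were Mt1 (520.4 and 364 FPKM), the glutathione transferase Gstm1 (415 and 321 FPKM), thioredoxin 1, Txn1 (318 and 342 FPKM), and glutathione peroxidase 1, Gpx1 (288 and 282 FPKM). Mgst1, a membrane-bound glutathione transferase, stood at 199.9 and 229 FPKM. The extracellular superoxide dismutase gene Sod3 stood at 0.04 and 0 FPKM. Metallothioneins and Hmox1 were higher in WT replicate 1 and Prdx1 in WT replicate 2, each by less than 2-fold.

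Genes of lipid storage, fatty acid binding and lysosomal hydrolysis were among the highest of lipid metabolism. The fatty acid-binding protein genes Fabp1 and Fabp5 are described above. Plin2, which coats lipid droplets, stood at 458 and 446 FPKM and Cidec, which enlarges them, at 131 and 142 FPKM. Plin4 and Plin5 stood at 0.02 and 0 and at 0.02 and 0 FPKM. Among 22 genes of cholesterol transport the lysosomal acid lipase gene Lipa (172 and 157 FPKM), the exporter Abcg1 (92.7 and 131 FPKM), the lysosomal carrier Npc2 (104 and 108 FPKM) and the cholesteryl ester hydrolase Nceh1 (91.4 and 98.8 FPKM) led. Abcg1 was higher in WT replicate 2, as was lipoprotein lipase, Lpl (87.7 and 141 FPKM). Pla2g15, the lysosomal phospholipase that degrades surfactant phospholipid, stood at 191 and 198 FPKM. Apoe, a major secreted apolipoprotein of many other macrophages, stood at 8.22 and 4.39 FPKM, and Apob, Apoc2 and Apoh had 0 counts.

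Synthesis and oxidation of fatty acids were both present at moderate levels. Of 36 genes of fatty acid activation and beta-oxidation 31 stood at or above 1 FPKM, with a median of 10.4 FPKM, led by the electron transfer flavoprotein subunit gene Etfb (134 and 128 FPKM) and the peroxisomal thiolase gene Acaa1b (113 and 122 FPKM). Cpt1a, the mitochondrial entry enzyme, stood at 39.4 and 39.99 FPKM, and its muscle and brain forms Cpt1b and Cpt1c stood at 0.01 and 0.05 and at 0.03 and 0 FPKM. All 22 cholesterol synthesis genes stood at or above 1 FPKM, with a median of 12.8 FPKM and the highest, Mvd, at 34.1 and 30.5 FPKM. Acly, which makes cytosolic acetyl-CoA, stood at 48.04 and 48.1 FPKM, and the phospholipid remodelling enzyme gene Lpcat3 at 44.4 and 43.2 FPKM. The sphingolipid list was led by Smpdl3a (199.9 and 210.2 FPKM), named for its likeness to acid sphingomyelinase. It also held acid ceramidase, Asah1 (103 and 126 FPKM).

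Central carbon metabolism was expressed throughout. Of 34 genes of the tricarboxylic acid cycle and its links, 33 stood at or above 1 FPKM with a median of 23.4 FPKM, and the gluconeogenic gene Pck1 had 0 counts. Idh1, the cytosolic isocitrate dehydrogenase, led this list at 80.3 and 91.6 FPKM. Aldoa led glycolysis at 536 and 467 FPKM, followed by Pkm (227 and 201 FPKM) and Ldha (127 and 136 FPKM), and the liver form Pklr had 0 counts. Hexokinase 3, Hk3, a form of myeloid cells, stood at 17.8 and 15.3 FPKM, above Hk1 (3.78 and 3.22 FPKM) and Hk2 (2.94 and 2.75 FPKM). The value for Gapdh, 8.81 and 8.41 FPKM, is uncertain, since its processed pseudogene Gapdh-ps15 was listed at 50.97 and 44.2 FPKM and Gapdh-ps16 at 29.7 and 27.1 FPKM.

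The pentose phosphate pathway, which supplies NADPH, was expressed at a high level. Taldo1, transaldolase, stood at 343 and 326 FPKM, Pgd at 140.3 and 124 FPKM, Tkt, transketolase, at 132 and 112 FPKM and G6pdx, the entry enzyme, at 123 and 106 FPKM. All 4 exceeded Pgam1 of glycolysis (96.8 and 87.4 FPKM) in both libraries, but Aldoa exceeded all 4, and Pkm exceeded Pgd, Tkt and G6pdx. The 36 glycolysis genes summed to 1441 and 1308 FPKM. This sum may lack Gapdh reads that were listed under its processed pseudogenes, as given above, so its comparison with the next sum is uncertain. The 23 genes of the pentose phosphate, glycogen and amino sugar list summed to 1036 and 966 FPKM. In amino acid metabolism Glud1, glutamate dehydrogenase, led at 137 and 136 FPKM, followed by glutamine synthetase, Glul (99.2 and 115 FPKM), and Phgdh, the first enzyme of serine synthesis (87.2 and 105 FPKM). Nos2, inducible nitric oxide synthase, stood at 0 and 0.01 FPKM from 0 and 4 counts, and Ido1, which breaks down tryptophan, had 0 counts. Alox5ap, the activating protein of leukotriene synthesis, stood at 351 and 320.2 FPKM, with leukotriene C4 synthase, Ltc4s, at 49.2 and 63.7 and 5-lipoxygenase, Alox5, at 38.2 and 39.3 FPKM.

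Cytokine receptors were led by the receptor of GM-CSF, the growth factor of alveolar macrophages. Csf2ra, its alpha chain, stood at 116 and 112 FPKM. Csf2rb, the signalling chain, stood at 65.3 and 72.9 FPKM, and Csf2rb2, a near-identical copy that serves interleukin 3, at 38.9 and 40.6 FPKM, so reads of these may be shared. Csf1r, the receptor of M-CSF, stood at 61.2 and 66.2 FPKM and Il2rg, the common gamma chain, at 44.9 and 43.4 FPKM. Of 47 cytokine receptor genes 26 stood at or above 1 FPKM in both libraries, beside 46.0% of all protein-coding genes. The list median was 2.14 FPKM. Il5ra and Il13ra2, which bind interleukin 5 and interleukin 13, had 0 counts. The ligand genes were near zero or low in the same cells: Csf2 had 0 and 3 counts, Csf1 stood at 1.63 and 1.29 FPKM, and Il34 had 0 counts. In bulk samples, fewer cells of a type and less RNA per cell cannot be told apart.

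Signalling genes below these receptors had moderate levels. Stat6, which serves interleukins 4 and 13, was the highest of the 7 STAT genes at 50.04 and 48.1 FPKM and 46.4% and 46.5% of their sum. Stat3 stood at 18.4 and 17.1 FPKM and Stat5b at 10.6 and 11.03 FPKM. Stat2 stood at 6.83 and 5.9 FPKM, and Stat5a, which with Stat5b serves GM-CSF, at 4.52 and 4.86 FPKM. Cish, the inhibitor of cytokine signalling that gives the series its subject, stood at 6.82 and 8.18 FPKM and held 28.5% and 31.0% of the FPKM of the 8 genes of its SOCS family. Socs3, which restrains interleukin 6 receptor signalling, stood at 6.47 and 6.25 FPKM. Socs4 and Socs7 followed at 3.94 and 4.22 and at 2.37 and 3.03 FPKM.

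TNF and TGF-beta receptors included Tnfrsf1b (112 and 98.3 FPKM), Tnfrsf1a (62.7 and 59.5 FPKM), Tgfbr2 (45.7 and 51.3 FPKM) and Tgfbr1 (32.95 and 39.8 FPKM), with the ligand Tgfb1 at 97.6 and 84.96 FPKM. Among 23 chemokine receptors 6 stood at or above 1 FPKM in both libraries, beside 46.0% of all protein-coding genes. Cxcr1, a receptor of neutrophil chemokines, was the highest at 91.2 and 68.4 FPKM, whereas its relative Cxcr2, the usual form of mouse neutrophils, stood at 1.07 and 0.98 FPKM. Cxcr4, the receptor of Cxcl12, stood at 48.2 and 61.1 FPKM. Cx3cr1, Ccr3 and Ackr2 were near zero, at 0.08 and 0.01, at 0.02 and 0 and at 0 and 0 FPKM. Other G protein-coupled receptors were led by the formyl peptide receptors Fpr2 (189 and 257 FPKM) and Fpr1 (120.01 and 137 FPKM) and by Adgre1, the F4/80 antigen (130.3 and 153 FPKM). Cmklr1, the chemerin receptor, had 0 counts.

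Of 28 scavenger and apoptotic cell receptor genes 19 stood at or above 1 FPKM, with a median of 16.1 FPKM. After Cd68 and Marco, the apoptotic cell receptor Axl stood at 367 and 367 FPKM, the mannose receptor Mrc1 at 166 and 199 FPKM and the fatty acid receptor Cd36 at 118 and 158 FPKM. Axl exceeded Mertk, a related kinase (34.97 and 40.6 FPKM), and of the ligands that bridge them to apoptotic cells Pros1 stood at 51.9 and 60.6 FPKM and Gas6 at 0.52 and 0.27 FPKM. Msr1, scavenger receptor A, stood at 10.5 and 8.96 FPKM, far below Marco. The lectin receptors were led by Clec4n, dectin 2 (535 and 592 FPKM), and Clec7a, dectin 1 (353 and 398 FPKM), receptors of fungal mannan and beta-glucan. Cd209a, Cd209c and Cd209e had 0 counts. Timd4 and Stab2, uptake receptors of other resident macrophages, stood at 0 and 0.07 and at 0.01 and 0 FPKM.

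Of 33 pattern recognition receptors and adaptors 29 stood at or above 1 FPKM, with a median of 6.88 FPKM. Tlr2 stood at 141 and 133 FPKM, Cd14 at 70.2 and 77.5 FPKM and the adaptor Myd88 at 45.5 and 46.4 FPKM, while Tlr4, the receptor of lipopolysaccharide, stood at 10.8 and 13.6 FPKM. The endosomal receptors Tlr7 (28.9 and 29.3 FPKM), Tlr8 (20.9 and 21.99 FPKM) and Tlr13 (23.2 and 18.9 FPKM), which sense RNA, exceeded Tlr4. Of the integrin chains, Itgax, CD11c, stood at 261 and 294 FPKM and Itgam, CD11b, at 1.5 and 1.57 FPKM, beside their partner Itgb2 at 584 and 537 FPKM. The Fc receptor genes Fcgr3 (159 and 165 FPKM) and Fcgr4 (107 and 99.9 FPKM) exceeded Fcgr1 (17.9 and 17.3 FPKM) and the inhibitory Fcgr2b (6.52 and 6.46 FPKM). The complement receptor genes Vsig4 and Cr2 had 0 counts. Inhibitory and adaptor proteins were represented by Tyrobp, DAP12 (474 and 584 FPKM), and Sirpa, the receptor of CD47 (207 and 226 FPKM).

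**Figure D3:**
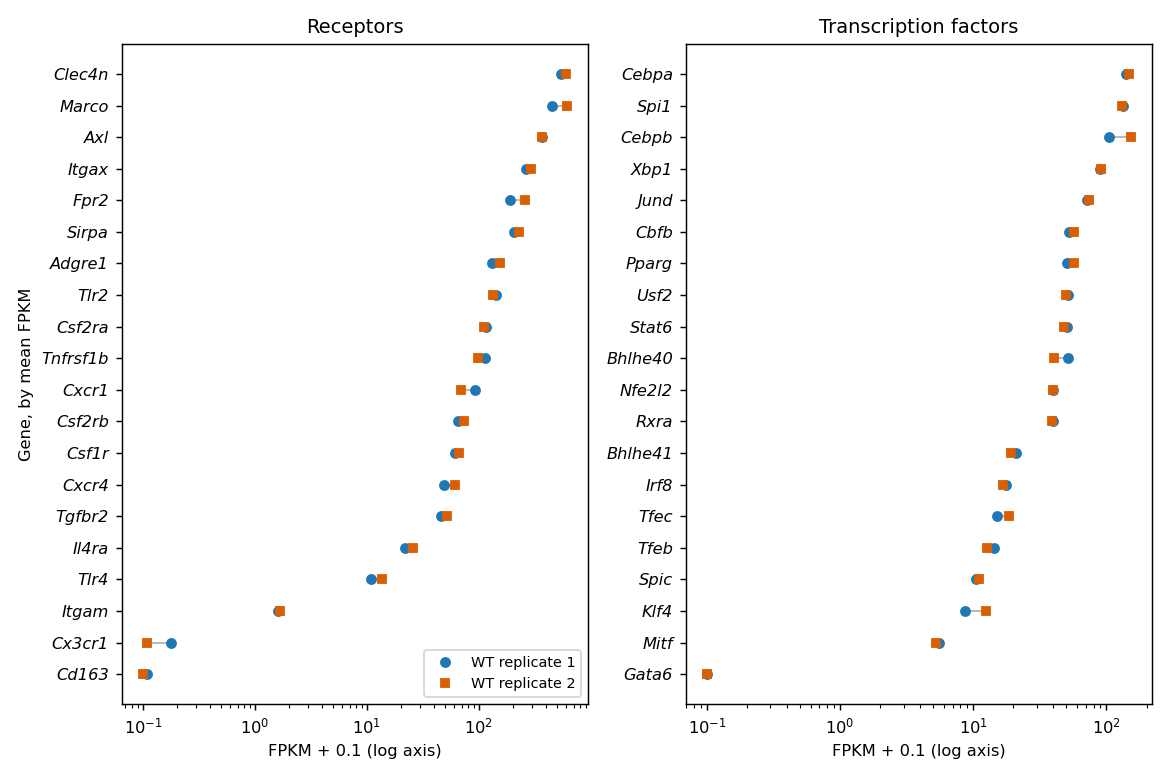
FPKM + 0.1 (log axis) of receptors (left) and transcription factors (right), ordered by mean, with WT replicate 1 as blue circles and WT replicate 2 as orange squares. Itgax lies far above Itgam, Cd163 and Cx3cr1 lie near the left edge, and Cebpa, Spi1 and Cebpb head the factors.

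Of the 747 genes annotated as DNA-binding transcription factors, none was among the 100 most abundant genes. They held 1.31% and 1.27% of protein-coding FPKM. At or above 1 FPKM stood 289 of them (38.7%), beside 46.0% of all protein-coding genes. The highest were Cebpa (139.9 and 147 FPKM) and Spi1 (133 and 129.6 FPKM), which encode the myeloid factors C/EBP alpha and PU.1, and Cebpb (105 and 153 FPKM). Cebpb was higher in WT replicate 2, and Cebpa and Spi1 were nearly equal in both. Xbp1, of the secretory pathway's stress response, stood at 88.8 and 90.8 FPKM and Jund, of AP-1, at 70.9 and 74.1 FPKM. Cbfb, the partner of RUNX factors, stood at 52.4 and 56.5 FPKM, above Runx1 (5.92 and 6.44 FPKM). Bhlhe40 and Bhlhe41, factors known to act in alveolar macrophage self-renewal, stood at 51.6 and 40.3 and at 20.7 and 19.2 FPKM. Nfe2l2, NRF2, the regulator of antioxidant genes, stood at 39.6 and 39.5 FPKM, and Spic, known from haem-handling macrophages, at 10.4 and 11 FPKM.

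Among nuclear receptors Pparg stood at 50.7 and 56.7 FPKM and its partner Rxra at 39.8 and 38.8 FPKM, while Ppard stood at 6.58 and 5.74 FPKM and Ppara had 0 counts. The liver X receptor genes Nr1h2 (20.99 and 21.6 FPKM) and Nr1h3 (16.6 and 16.01 FPKM), which sense oxysterols, were also expressed. Of 48 nuclear receptor genes 19 stood at or above 1 FPKM and 23 stood below 0.1 FPKM, beside 46.0% and 38.0% of all protein-coding genes. Gata6, a factor of peritoneal macrophages, and Sall1, a factor of microglia, had 0 counts. Maf, which restrains macrophage proliferation, stood at 0.35 and 0.07 FPKM. Of 35 factors of other blood and lung lineages, 21 stood below 0.1 FPKM in both libraries, beside 38.0% of all protein-coding genes, among them Gata1, Gata2, Ebf1 and Sox17 at 0 counts.

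Secreted factors spanned a wide range of levels. Beside Lyz2, Chil3, Ear2, Ear1 and Ccl6, the protease inhibitor gene Slpi stood at 232 and 278 FPKM, osteopontin, Spp1, at 186 and 193 FPKM and the transmembrane glycoprotein gene Gpnmb at 262 and 232 FPKM. Il18, stored as an inactive precursor until caspase 1 cleaves it, was the highest interleukin at 337 and 351 FPKM. Il1rn, the interleukin 1 receptor antagonist, stood at 46.2 and 46.2 FPKM, above Il1a (13.98 and 12.4 FPKM) and Il1b (7.62 and 10 FPKM). Of 48 interleukin, interferon and colony-stimulating factor genes 13 stood at or above 1 FPKM in both libraries and 18 had 0 counts. Among all protein-coding genes the corresponding shares were 46.0% and 24.5%. Tnf stood at 15.2 and 10.6 FPKM, and the progranulin gene Grn, a lysosomal and secreted protein, at 355 and 308 FPKM.

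Chemokines other than Ccl6 were low, led by Ccl3 (30.7 and 22.8 FPKM), Ccl9 (9.49 and 16.9 FPKM) and Cxcl2 (11.9 and 11.9 FPKM), and Ccl7, Ccl24 and Cxcl13 had 0 counts. Of 32 coagulation and complement genes, 12 stood at or above 1 FPKM in both libraries and 12 below 0.1 FPKM. The shares of all protein-coding genes were 46.0% and 38.0%. Coagulation factor VII, F7, stood at 183 and 163 FPKM and factor X, F10, at 107 and 121 FPKM, whereas F13a1, a factor of other macrophages, had 0 counts. Complement factor B, Cfb, stood at 130.4 and 175 FPKM, C3 at 80.1 and 110.4 FPKM and properdin, Cfp, at 68.7 and 70.8 FPKM, and the alternative pathway uses all 3. Cfi and Cfd had 0 counts. Beside Slpi, the cystatin genes led the protease inhibitors, with Cstb at 347 and 333 FPKM and Cst3 at 215 and 224 FPKM, and the neutrophil protease genes Elane, Prtn3 and Ctsg had 0 counts. Mmp19 was the highest matrix metalloproteinase of its list at 27.4 and 34.2 FPKM.

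Near-zero members were the majority in the lists of eosinophils, basophils and mast cells, of endothelium, of fibroblasts and related cells, and of B and plasma cells, beside 38.0% of all protein-coding genes. Of 16 eosinophil, basophil and mast cell genes, 13 stood below 0.1 FPKM and 9 had 0 counts, including eosinophil peroxidase, Epx, and Il5ra, Ms4a2, Prss34 and Tpsab1. The highest, Prg2, stood at 0.44 and 0.23 FPKM. A count of 0 for Epx allows up to 0.0179 and 0.015 FPKM. Siglecf was therefore high in libraries in which Epx and Il5ra, which define eosinophils, were not detected. Of 15 endothelial genes 11 stood below 0.1 FPKM and 7 had 0 counts, among them Cdh5 and Kdr, while Vwf stood at 7.54 and 7.08 FPKM. Of 16 fibroblast, smooth muscle and mesothelial genes 12 stood below 0.1 FPKM, and Acta2 and Msln stood at 3.57 and 2.19 and at 2.43 and 2.65 FPKM. Upk3b and Wt1 had 0 counts.

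The myeloid lists gave mixed levels. Interstitial macrophage genes were low, with Pf4 at 1.5 and 2.16 FPKM, Ccr2 at 1.3 and 1.32 FPKM and the complement genes C1qb and C1qa at 0.86 and 0.72 and at 0.73 and 0.72 FPKM, and Lyve1 and Folr2 had 0 counts. In the neutrophil list Csf3r, the G-CSF receptor (30.4 and 29.4 FPKM), Ltf (24.8 and 23.04 FPKM), S100a8 (22.6 and 22.4 FPKM) and Mmp8 (5.81 and 6.1 FPKM) were detected, while Elane, Prtn3 and Stfa2l1 had 0 counts and Mpo stood at 0.04 and 0 FPKM. S100a8 exceeded its usual partner S100a9 (2.41 and 2.19 FPKM) in both libraries. The summed level of the 16 neutrophil genes was 89.7 and 85.4 FPKM. Monocyte genes were led by Cd14, by Treml4 (57.5 and 54.1 FPKM), by Hp (15.4 and 16.04 FPKM) and by Spn (14.4 and 13.02 FPKM), and F13a1 had 0 counts. Of 18 dendritic cell genes, 4 stood at or above 1 FPKM in both libraries and 5 below 0.1 FPKM. The shares of all protein-coding genes were 46.0% and 38.0%. The highest were Bst2 (31.8 and 30.97 FPKM) and Wdfy4 (20.3 and 22.1 FPKM), which are also expressed by other cells. Among the near-zero members, Clec9a and Flt3 stood at 0.01 and 0.04 and at 0.01 and 0 FPKM, and Cd209a had 0 counts.

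Epithelial and red cell transcripts were detectable in both libraries. Airway club cell genes were the highest of the epithelial lists, with Scgb1a1 at 59.9 and 95.03 FPKM, Cyp2f2 at 49.5 and 56.1 FPKM, Bpifa1 at 44.9 and 39.5 FPKM and Tppp3, of ciliated cells, at 41.03 and 28.9 FPKM. The 17 airway genes summed to 250.3 and 294 FPKM. Of the alveolar epithelial genes Napsa stood at 38.95 and 39.7 FPKM and Abca3 at 13.7 and 13.4 FPKM, whereas the surfactant protein gene Sftpc, one of the most abundant transcripts of type 2 cells, stood at 4.53 and 5.75 FPKM. Epcam stood at 12.5 and 9.61 FPKM. Krt19, high as given above, is also an epithelial gene, and the part of epithelial RNA in it was not tested. Haemoglobin genes ranged from 41.1 and 39.5 FPKM for Hbb-bt to 80.8 and 79.6 FPKM for Hbb-bs and took 0.0207% and 0.0194% of the counts, and Ppbp and Gata1 had 0 counts.

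Cell cycle genes were expressed, with 23 of 24 at or above 1 FPKM in both libraries and a median of 7.25 FPKM. Pcna stood at 61.6 and 65.5 FPKM, the replication helicase genes Mcm3 at 32.7 and 32.3, Mcm7 at 21.3 and 21.6 and Mcm5 at 17.5 and 18.5 FPKM. The proliferation marker Mki67 stood at 5.35 and 6.72 FPKM. None of the 23 genes with a mean of at least 1 FPKM was over 2-fold apart between the libraries, beside 0.812% of protein-coding genes.

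**Figure D4:**
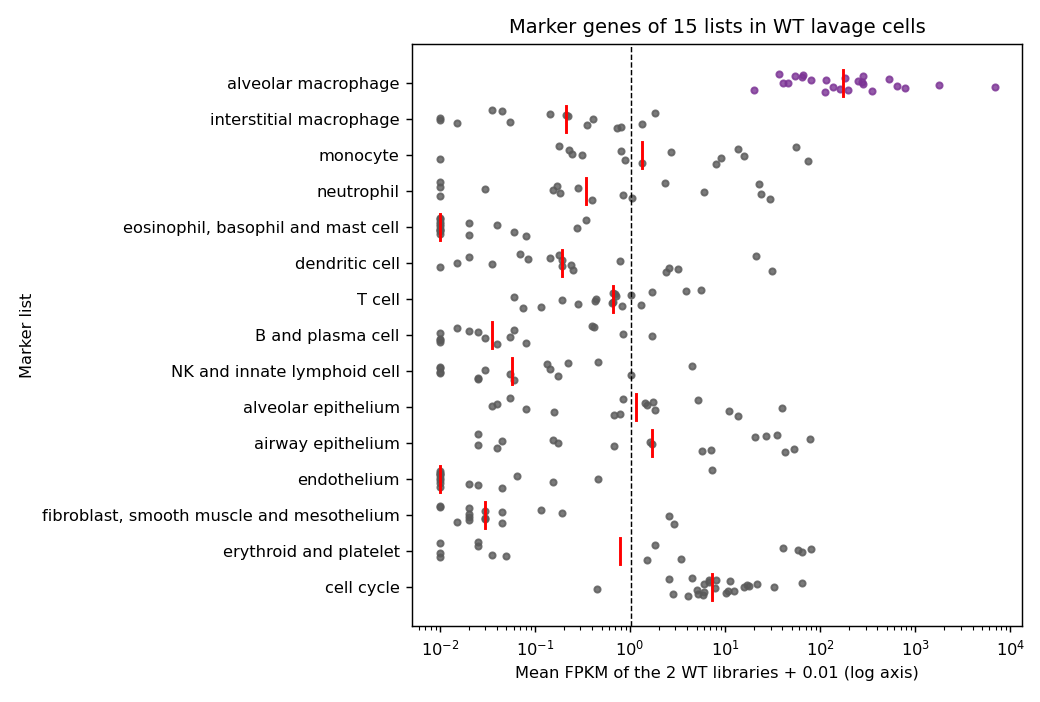
Mean FPKM + 0.01 of the 2 WT libraries (log axis) for each gene of 15 marker lists, with the median of each list as a red bar and 1 FPKM as a dashed line. The 24 alveolar macrophage genes (purple) all lie above 10 FPKM, and the medians of the eosinophil, basophil and mast cell list and of the endothelium list are 0.

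The 2 libraries were close to each other for most genes. Among the 9360 protein-coding genes with a mean of at least 1 FPKM, 76 (0.812%) were over 2-fold apart on the scale of FPKM + 0.1, 56 (0.598%) of them higher in WT replicate 1 and 20 (0.214%) in WT replicate 2. The median fold between the libraries was 1.11 for genes between 1 and 10 FPKM, 1.08 between 10 and 100 FPKM and 1.08 above 100 FPKM, and 95% of genes lay within 1.49-fold, 1.29-fold and 1.36-fold. The Spearman correlation across these genes, which are not independent replicates, was 0.986. Counts differed by more than sampling alone gives, with a mean squared standardised difference of 65.4 where sampling alone gives 1. The median over genes was lower, at 8.28. The count files are therefore not copies of each other. Whether the difference is biological or technical, such as a second preparation or run of the same material, was not tested.

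T cell genes stood apart from this close match. The 18 genes of the T cell list summed to 30.6 FPKM in WT replicate 1 and 7.35 FPKM in WT replicate 2. The T cell receptor constant gene Trbc2 stood at 9.01 and 2.04 FPKM, Trbc1 at 6.09 and 1.54 FPKM, Trac at 2.96 and 0.43 FPKM, Cd3d, of the receptor complex, at 2.11 and 0.48 FPKM and the receptor kinase gene Lck at 1.7 and 0.31 FPKM. All 5 of 5 list members with a mean of at least 1 FPKM were over 2-fold higher in WT replicate 1, beside 0.598% of protein-coding genes, a background that does not hold the receptor constant genes. Of the 16 with a mean of at least 0.1 FPKM 12 were over 2-fold higher in that library. At that minimum 3.92% of 11901 protein-coding genes were over 2-fold apart, 2.87% higher in WT replicate 1 and 1.05% in WT replicate 2. Ctla4 and Ccr7, of which Ctla4 was picked after its values were seen, went the same way at 5.74 and 1.02 and at 4.1 and 0.96 FPKM. Natural killer and innate lymphoid genes summed to 9.48 and 3.85 FPKM, led by Nkg7 at 5.86 and 2.98 and Gzmb at 1.62 and 0.42 FPKM, with Ncr1, Klre1 and Klra8 at 0 counts. B and plasma cell genes summed to 4.88 and 2.26 FPKM, led by Ighm at 2.27 and 1.14 and Igkc at 1.01 and 0.64 FPKM, with Cd79b, Ebf1 and Cr2 at 0 counts. The lymphoid lists were therefore low in both libraries and lower in WT replicate 2.

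**Figure D5:**
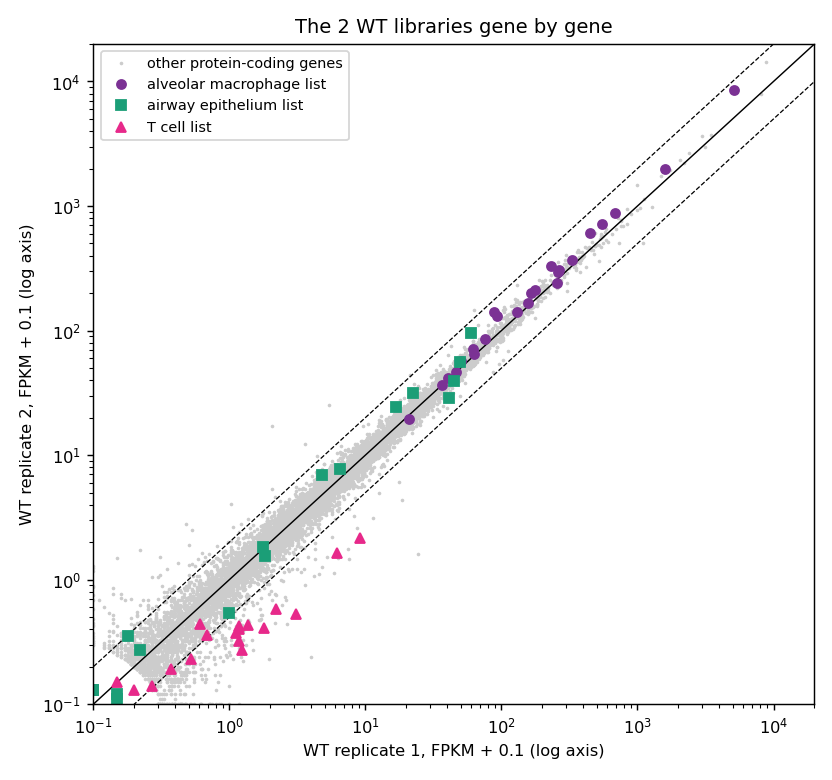
FPKM + 0.1 in WT replicate 2 against WT replicate 1 (log axes) for protein-coding genes with a mean of at least 0.1 FPKM (grey) and for all members of 3 marker lists, with equality as a solid line and 2-fold as dashed lines. Most T cell genes (pink) fall below the lower dashed line, while the alveolar macrophage genes (purple) lie within the dashed lines.

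Among genes with a mean of at least 10 FPKM, the largest differences between the libraries included several with overlapping or duplicated gene models. Septin2 is listed under a pair of gene identifiers, of which 1 stood at 24.2 and 1.5 FPKM and the other at 6.56 and 18.7 FPKM, and their summed level was 147.7 and 171 CPM, counts scaled by sequencing depth only. Evi2 (17.5 and 5.97 FPKM) and Evi2b (5.33 and 25.03 FPKM) overlap on the same strand and differed in opposite directions, with a summed level of 87.6 and 77.8 CPM. The sources used here do not state how reads shared by such models were assigned. Hnrnpa3, an RNA-binding protein, stood at 18.4 and 4.25 FPKM, and the ribosomal protein gene Rpl29, which has processed copies, at 62.5 and 145 FPKM.

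The other genes at these ends had smaller folds. The stress-induced chaperone genes Hspa1b and Hspa1a, a near-identical pair, stood at 96.6 and 53.8 and at 103 and 57.6 FPKM. H2-Ab1, of MHC class II, stood at 13.7 and 8.03 FPKM and Gm10800, a predicted gene, at 86.5 and 46.7 FPKM. Higher in WT replicate 2 were Wfdc17 (21.1 and 43.8 FPKM), a secreted protein of macrophages, the actin regulator Arpc1b (42.2 and 75.2 FPKM), Ccl9, the cyclophilin Ppia (130.4 and 230.2 FPKM), Chil3 and the glucocorticoid-induced Tsc22d3 (10.4 and 17.6 FPKM). Of 3381 genes with a mean of at least 10 FPKM 7 were over 2-fold apart, and Chil3 was 1.69-fold apart.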

How the data were processed

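Lavage cell RNA of 2 WT samples was analysed. The authors deposited a raw count per gene and an FPKM value per gene, per the file headers. The submitters' processing notes name build mm10, whereas the sources used here state no aligner, counting tool or strandedness. The deposited FPKM equalled counts per GENCODE M21 exon length and per 1.11 times the summed counts, within 1% for 98.8% of the 3743 and 3727 genes checked. Biotypes came from GENCODE M21, promoters from RefSeq GRCm38.p6. Of 1582 listed symbols 1560 matched. Tables were computed in Python 3.11.15, and edgeR 4.0.16 supplied an alternative scaling. Count and fold functions were tested on simulated data.

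With 1 group of 2 libraries no test was made, and totals of 55129216 and 65937118 counts set the precision. Genes were named by their rank in each list (up to 8 highest, 6 near zero; of lineage lists the 4 highest and those with 0 counts), the 30 highest outside mitochondrial and ribosomal protein genes, all family members at 1 FPKM, and the 8 furthest apart each way. The members and lists were chosen with earlier results of these data known. Picked outside this rule, after their values were seen, were Apoe, Atp6v0b, Atp6v0d1, Atp6v0d2, Blvrb, Csf1, Ctla4, Ctsw, Fcgr2b, Gapdh, Gas6, Glb1, Itgam, Maf, Mertk, Mitf, Mki67, Msr1, Naglu, Runx1, Slc40a1, Tfe3, Tfeb, Tfec, Tfrc and Tlr4.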

Additional observations from a re-analysis of the deposited data

How the results depend on the processing

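The number of protein-coding genes at or above 1 FPKM in both libraries, 9162, stayed within 1.5 times under all 8 alternatives, from 7799 at a minimum of 2 FPKM to 12205 at 10 raw counts in both libraries. The share held by the 100 most abundant genes was 37.8%. It was 27.1% when computed per read as CPM and 46.5% with mitochondrially encoded genes kept, and 36.5% to 39.1% with either library left out. The 76 genes over 2-fold apart became 39 with a pseudocount of 1, 625 with no minimum and 7 with a minimum mean of 10 FPKM, since fewer low genes remain. With edgeR TMM or median-of-ratios scaling the number was 76, with 21 higher in WT replicate 2. Of 69 gene lists, 8 had a count of members at or above 1 FPKM that moved by more than 1.5 times under some alternative, 7 of them with a minimum of 2 FPKM. The T cell list had 2 such members, and 11 without WT replicate 2. Of the 30 highest genes by FPKM 21 were among the 30 highest by CPM, where Siglecf ranked 729 and Fabp4 739. The count of genes 2-fold apart could not be computed with a library left out. No paired analysis was possible because a single group of 2 libraries was described and no test was made.

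Depth limits only the lowest genes: 3 counts correspond to 0.0544 and 0.0455 CPM. For genes with near-identical copies, how reads were assigned was not tested.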

Other observations

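Some genes known from oocytes were detected in both libraries, a set gathered after its values were seen. Dppa3, a maternal factor of early embryos, stood at 11.2 and 3.02 FPKM in WT replicates 1 and 2, from 611 and 198 counts. Zp3, a protein of the egg coat, stood at 2.47 and 0.62 FPKM and H1f8, the oocyte linker histone, at 2.29 and 0.90 FPKM. The others with the highest levels were Elobl (7.33 and 1.66 FPKM), Dppa5a (5.12 and 1.41 FPKM), Fbxw24 (4.18 and 1.36 FPKM), Bcl2l10 (3.03 and 1.11 FPKM) and Gtsf1 (2.77 and 1.11 FPKM). The 24 genes of the set summed to 44.8 and 12.7 FPKM, and 6 of 24 reached 1 FPKM in both libraries. As they were chosen for these values, their direction supports nothing, and the source of these transcripts was not tested.

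Il10, the gene of an anti-inflammatory cytokine, was picked after its values were seen and stood at 0.12 and 1.63 FPKM, from 10 and 156 counts.

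The mitochondrially encoded mt-Co2 was listed with 213510 and 275676 counts, and Gm28661, a pseudogene on a nuclear chromosome, with 210588 and 269225. A count close to that of mt-Co2 in the second gene bears on any sum that includes both.

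The TATA box letters TATAAA, searched on the sense strand between 45 and 15 bases before the RefSeq start, were present in 3 of 77 promoters of the 100 most abundant genes (3.90%), in 64 of 6800 of genes ranked over 1000 with a mean of at least 1 FPKM (0.941%), and in 232 of 5826 with a mean under 0.1 FPKM (3.98%). Over all 15341 promoters the share was 2.40%. The upstream 250 bases of these 3 classes held a median of 14, 17 and 4 CG dinucleotides.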
